A study of Mus musculus with 2 samples.

Results

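Hepatocytes of intermediate zonal identity were examined in liver that was regenerating 48 h after partial hepatectomy (PHx), an operation that takes away part of the liver. The group comprised 371 barcodes, each standing for 1 droplet, of the 1586 in the PHx48h library and of 60788 in both libraries of the series. Members were chosen by measured values, the mitochondrial share and the UMIs of 15 zonal genes, in 2 steps. First, the 765 barcodes with more than 30% of their unique molecular identifiers (UMIs, 1 per captured transcript molecule) in 13 mitochondrial (mt) genes were taken. Second, a zone share was computed for the 744 of them with at least 10 UMIs of 15 zonal genes. The share is the percentage of those UMIs that came from 7 perivenous genes (Glul, Cyp2e1, Cyp1a2, Oat, Slc1a2, Lect2 and Rhbg) rather than from 8 periportal genes (Cyp2f2, Sds, Hal, Hsd17b13, Pck1, Ctsc, Ass1 and Asl). Barcodes strictly between the 25th and 75th percentiles, at shares of 11.3% and 48.2%, formed the middle group. The 186 barcodes at or above the upper limit are called the perivenous group, and the 187 at or below the lower limit the periportal group. The study's methods left out cells of high mt content, at a threshold not given in the sources used here, so these barcodes may be among those its authors discarded.

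Both libraries were made from C57BL/6 mice (male C57BL/6J by the study's methods), labelled as 10 to 12 weeks old and fed a normal diet. Hepatocytes were released by perfusing the liver with collagenase in 2 steps, and 1 library was made from undamaged liver (0 h) and 1 from liver at 48 h after PHx. By the study's description each library came from the hepatocytes of 1 mouse, so no difference given here has a replicate, and no test was possible between groups of barcodes or between time points. Intervals in brackets are exact 95% intervals for counting error, and they cover neither the variation between mice nor that between preparations. Those of pooled levels and ratios treat each UMI as independent and also leave out the spread between barcodes. A difference beyond counting error therefore need not exceed that spread.

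A liver lobule is fed with blood at its portal edge and drained at its central vein, and hepatocytes divide their tasks along that path. Periportal cells favour urea and glucose production, perivenous cells favour glutamine synthesis and the metabolism of foreign compounds, and the cells between them express both programs at intermediate levels. Some genes peak in the middle of the lobule. Markers of it include Hamp, which encodes the iron hormone hepcidin, and Igfbp2, which encodes a secreted binding protein for insulin-like growth factors.

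The zone share placed the middle group by few molecules per droplet. Its barcodes held 10 to 228 zonal UMIs with a median of 34, against medians of 28.5 in the perivenous and 55 in the periportal group. The median share was 22.3%, and the share of the pooled UMIs was 23.2%, against 71.6% in the perivenous and 7.47% in the periportal group. The values just inside the limits were 11.36% and 48.24%, and those just outside were 11.29% and 48.28%, with 2 barcodes at the lower limit itself. The exact binomial interval of the share lay wholly within both limits for 53 of the 371 barcodes. It reached the lower limit in 216 and the upper limit in 137, including 35 in which it spanned both. The middle group is therefore a range of the share and not a separate cluster.

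**Figure D1:**
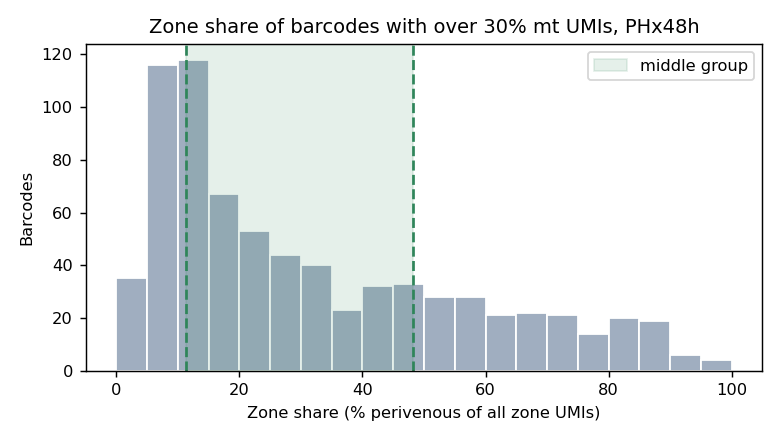
Number of barcodes (y axis) by zone share in percent (x axis, bins of 5 percentage points) among the 744 PHx48h barcodes that entered the division. The shaded band between dashed lines marks the middle group from 11.3% to 48.2%, and no gap in the distribution stands at either limit.

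The rule used the 15 zonal genes, so their levels are a description. Levels are UMIs scaled to a fixed total of non-mt UMIs (CPM, per 1000000), summed over the barcodes of a group. Cyp2e1, a cytochrome P450 that oxidises ethanol, stood at 130 CPM in the periportal group, 507 CPM in the middle group and 2403 CPM in the perivenous group. Glul, the glutamine synthetase of the cells around the central vein, stood at 40.3, 78.8 and 647 CPM in the same order. Sds, which degrades serine, had 650, 285 and 58.0 CPM, and Cyp2f2 had 1111, 715 and 173 CPM. The middle group lay closer to the periportal than to the perivenous group for these 4 genes on the log2 scale.

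The 2 markers of the middle of the lobule did not behave alike. Igfbp2 had 591 CPM in the middle group [561 to 622], 454 CPM in the periportal group [423 to 488] and 370 CPM in the perivenous group [330 to 412]. The groups' intervals did not overlap, and the log2 ratio of the middle group was 0.68 over the perivenous group [0.50 to 0.85] and 0.38 over the periportal group [0.25 to 0.51]. Igfbp2 ranked 4 of 2456 genes by the smaller of its 2 ratios. Hamp had 1674 CPM in the middle group [1624 to 1726], 1245 CPM in the periportal group [1192 to 1299] and 1583 CPM in the perivenous group [1501 to 1668]. Its log2 ratio was 0.43 over the periportal group [0.35 to 0.50] but 0.08 over the perivenous group [-0.01 to 0.17], and Hamp ranked 201. The second ratio depended on the settings: of 12 alternatives, its interval lay above 0 in 8, with a highest ratio of 0.31 at an mt threshold of 20%, and below 0 in 1, with -0.0873 between the 33rd and 67th percentiles. The label of midlobular hepatocytes was thus borne out by Igfbp2 against both outer groups. Hamp was above the periportal group, as a gene graded towards the perivenous side would also be. Against the perivenous group the ratio of Hamp changed with the settings, so Hamp alone did not decide the label. Of the 4 midlobular markers with at least 50 CPM, 2 (Igfbp2 and Hamp) were above both outer groups, Hamp only within counting error over the perivenous group. The other 2, Mup3 and Cyp8b1, were between the outer groups and did not bear the label out. Among all 2456 genes, 17.9% were above both and 60.7% between.

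Within the middle group, Hamp differed with the share and Igfbp2 did not beyond counting error. When the group was divided at its median share, Hamp had 1452 CPM in the 185 barcodes of lower share and 1966 CPM in the 186 of higher share [1883 to 2052]. The higher-share barcodes exceeded the perivenous group, so of these groups Hamp was highest at shares of 22.3% to 48.2%. That range holds the pooled share, 39.9%, of the barcodes with under 2% mt UMIs. Hamp was higher in those barcodes than in any of these groups, as given below. The part of RNA shared between droplets in this maximum was not tested. Igfbp2 had 614 CPM in the lower-share barcodes [574 to 656] and 561 CPM in the higher-share barcodes [517 to 607], 2 intervals that overlapped. Cyp8b1, an enzyme of cholic acid synthesis, followed the order of Hamp at low counts. It had 42.0 CPM in the periportal group, 49.3 and 69.5 CPM in the lower-share and higher-share barcodes, and 61.4 CPM in the perivenous group, with overlapping intervals between neighbours. Mup3, a major urinary protein gene whose reads could be shared with near-identical copies, had 9241, 7050 and 5695 CPM from the periportal to the perivenous side.

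Single barcodes were compared after each was thinned to 1000 non-mt UMIs, which removed no barcode from the 3 groups. Igfbp2 had at least 1 UMI in 43.9% of the middle group [38.8 to 49.2], 34.2% of the periportal group and 26.9% of the perivenous group. The same share was 26.1% in the 522 barcodes of the library with under 2% mt UMIs, whose median depth of 5271.5 non-mt UMIs resembled the 4753 of the middle group. Without thinning, Igfbp2 was detected in 86.3% of the middle group and 81.4% of the low-mt barcodes. Hamp went the other way, with 73.0% of the middle group [68.2 to 77.5], 61.5% of the periportal group, 73.1% of the perivenous group and 91.6% of the low-mt barcodes [88.8 to 93.8]. Its pooled level there was 2872 CPM, above all 3 groups. The detection of Hamp in the middle group was accordingly no higher than in the low-mt barcodes, so it was not read as a sign of expression in single barcodes. What the low-mt barcodes are, and whether they hold free RNA, was not tested. The pooled zone share of the low-mt barcodes was 39.9%, which falls inside the limits of the middle group, and the part of RNA shared between droplets in the values of the middle group was not tested.

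Igfbp2 lies on chromosome 1 from 72824503 to 72852474 on the plus strand, and Hamp on chromosome 7 from 30942368 to 30944032 on the minus strand (GRCm38). Hamp has a neighbouring copy, Hamp2, on chromosome 7 from 30922372 to 30924681. The 2 copies were counted very differently, with 1674 CPM for Hamp and 14.4 CPM for Hamp2 [10.1 to 19.9] in the middle group, although reads could be split between them. The 250 bases before their annotated starts (RefSeq, GRCm38.p6, 5′ to 3′ on the minus strand) are shown because hepcidin transcription is known to respond to bone morphogenetic protein (BMP) and STAT3 signals through this region. Capitals mark matches, on either strand, to a STAT-type motif (TTCNNNGAA) and a BMP-type motif (GGCGCC).
Hamp, chr7:30944030-30944279: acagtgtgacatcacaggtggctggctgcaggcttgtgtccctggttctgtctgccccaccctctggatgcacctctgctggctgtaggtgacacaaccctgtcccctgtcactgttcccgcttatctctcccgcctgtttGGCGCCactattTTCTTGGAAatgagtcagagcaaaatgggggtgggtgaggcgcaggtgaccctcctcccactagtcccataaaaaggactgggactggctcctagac
Hamp2, chr7:30924182-30924431: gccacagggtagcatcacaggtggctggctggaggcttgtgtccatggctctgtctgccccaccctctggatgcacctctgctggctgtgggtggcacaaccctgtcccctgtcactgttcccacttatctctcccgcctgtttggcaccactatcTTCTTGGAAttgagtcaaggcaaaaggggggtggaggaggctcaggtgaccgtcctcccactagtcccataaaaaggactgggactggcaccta
The STAT-type match began at position -97 from the start in Hamp and at -94 in Hamp2. Hamp had a BMP-type match at -109, and Hamp2 had none in this window. Of 32851 promoter windows of this length, 7.02% held the STAT-type motif and 9.59% the BMP-type motif. Neither motif was found in the windows of the 2 annotated starts of Igfbp2. These matches describe letters and do not show binding.

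The middle group was intermediate in depth, as the rule did not require. Its barcodes had 1206 to 32428 non-mt UMIs with a median of 4753. The perivenous group had 1062 to 24651 with a median of 3613, and the periportal group 1194 to 35712 with a median of 6496. On the log2 scale the median of the middle group differed by 0.40 from that of the perivenous and by -0.45 from that of the periportal group. The median number of genes was 1710, against 1459 and 2173 respectively. Median mt shares were near each other, at 56.9% in the middle group, 58.1% in the perivenous group and 55.9% in the periportal group. Within bins of depth, the middle group took between 41.2% and 55.6% of the barcodes. The perivenous group took 42.6% of the barcodes under 2000 non-mt UMIs and 9.52% of those at 16000 or more, and the periportal group took 16.2% and 46.0% of the same bins. Depth therefore moved with the zone share, and its part in the differences between groups was not tested.

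Zonal genes outside the rule placed the middle group between the outer groups. Features were 2456 genes, other than those of the rule and the mt genes, with at least 50 CPM over the 744 barcodes. Of these, 60.7% had a level in the middle group between those of the 2 outer groups, 17.9% above both and 21.4% below both. Of 17 perivenous features kept out of the rule, 17 were between. The level in the middle group was lower than in the perivenous group by at least 0.32 on the log2 scale, the fold limit used throughout within the library, for 14 of them, against 18.8% of all features. It was higher than in the periportal group by that limit for 12, against 7.86%. The most abundant of the list had shallow gradients, with Cyp3a11, a major drug-oxidising cytochrome P450, at 6423, 6462 and 7507 CPM and Gstm1, a glutathione transferase, at 2884, 2967 and 3541 CPM from the periportal to the perivenous group. Cyp2a5, which oxidises coumarin and nicotine, had 119, 385 and 2018 CPM from the periportal group through the middle group to the perivenous group. Cyp7a1, the rate-limiting enzyme of bile acid synthesis, had 33.2, 176 and 486 CPM. The gradient continued inside the middle group, with Cyp2a5 at 151 CPM in the lower-share and 693 CPM in the higher-share barcodes. Reads of cytochrome P450 and Gstm genes could be shared between near-identical copies.

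Of 25 periportal features outside the rule, 21 were between the outer groups, where 60.7% of all features were. In the middle group, 16 were past the fold limit above the perivenous group (11.6% of all features) and 10 past it below the periportal group (3.66%). Alb, the albumin gene, had 58735 CPM in the periportal group, 53365 CPM in the middle group and 33504 CPM in the perivenous group. Apoc3, an apolipoprotein that slows triglyceride clearance, had 7355, 6605 and 6279 CPM. Cdh1, which encodes E-cadherin, had 177 CPM in the periportal group, 143 CPM in the middle group and 18.2 CPM in the perivenous group. Its log2 ratio over the perivenous group was 2.98 [2.26 to 3.80], whereas over the periportal group it was -0.31 [-0.53 to -0.08]. Gls2, the liver glutaminase, had 304, 229 and 52.3 CPM, and Aldh1b1, a mitochondrial aldehyde dehydrogenase, had 241, 101.2 and 27.3 CPM. Cps1, the first enzyme of the urea cycle, was highest in the middle group, at 2808 CPM against 2632 CPM in the periportal and 1849 CPM in the perivenous group. Hpd, an enzyme of tyrosine breakdown listed as periportal, stood higher in the perivenous group, at 1287 CPM against 808 CPM in the middle group and 770 CPM in the periportal group.

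**Figure D2:**
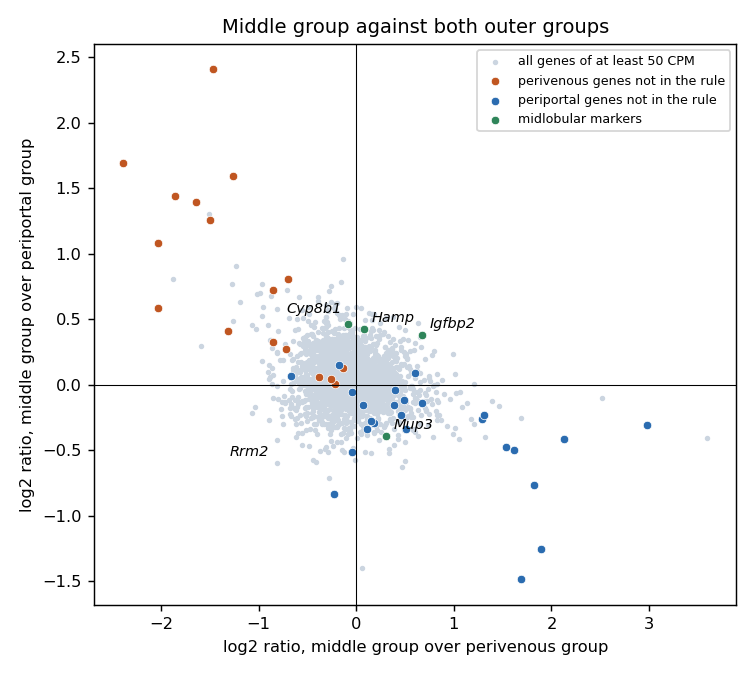
Log2 ratio of the middle group over the perivenous group (x axis) and over the periportal group (y axis), 1 point per gene of at least 50 CPM outside the rule; coloured points are the perivenous, periportal and midlobular lists. All 17 perivenous genes lie in the upper left, most periportal genes in the lower right, and Igfbp2 in the upper right at 0.68 and 0.38.

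Few genes had a level in the middle group past the fold limit against both outer groups. Levels past the fold limit above both outer groups were found for 12 features (0.489%) and levels past it below both for 14 (0.57%). Besides Igfbp2, the 10 with the highest smaller ratio were Ddx56, Tspan4, Mt2, Mogs, Hgfac, Stat3, Dnajc5, Thnsl2 and Tmem214. Mt2, a metallothionein that binds zinc and copper, had 158 CPM in the middle group [142 to 174], against 118 in the periportal group and 111 in the perivenous group. Hgfac, the protease that activates hepatocyte growth factor, had 181 CPM, against 140 and 115. Ddx56, a nucleolar RNA helicase, had 61.6 CPM, against 44.4 and 39.8. Stat3, the transcription factor that acts downstream of interleukin 6, had 94.4 CPM, against 74.0 and 72.8. The ratio of Stat3 was 0.35 over the periportal group [0.03 to 0.68] and 0.38 over the perivenous group [-0.03 to 0.80], so the second did not exceed counting error. The same was true of Mogs against the perivenous group, and of Dnajc5 and Thnsl2 against both outer groups. The low-mt barcodes held 203 CPM of Mt2, more than the middle group, and 36.0 CPM of Hgfac.

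At the other end stood Rrm2, Ppm1b, Tmx1, 1810043H04Rik, Mcm6, Insig2, Mcee, Slc2a2, Cds2 and Gsto1. The interval of the ratio included 0 for 1810043H04Rik and Cds2 against the perivenous group and for Gsto1 against the periportal group. Rrm2, a subunit of the ribonucleotide reductase that supplies DNA synthesis, had 74.4 CPM in the middle group [64.1 to 85.9], against 113 CPM in the periportal group [97.1 to 130] and 131 CPM in the perivenous group [108 to 157]. Mcm6, part of the replicative helicase, had 42.8 CPM, against 57.4 and 75.05. Slc2a2, the main glucose transporter of hepatocytes, had 95.6 CPM, against 124 and 126. Insig2, which retains the sterol sensor in the endoplasmic reticulum, had 66.4 CPM, against 100.1 and 88.7.

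**Figure D3:**
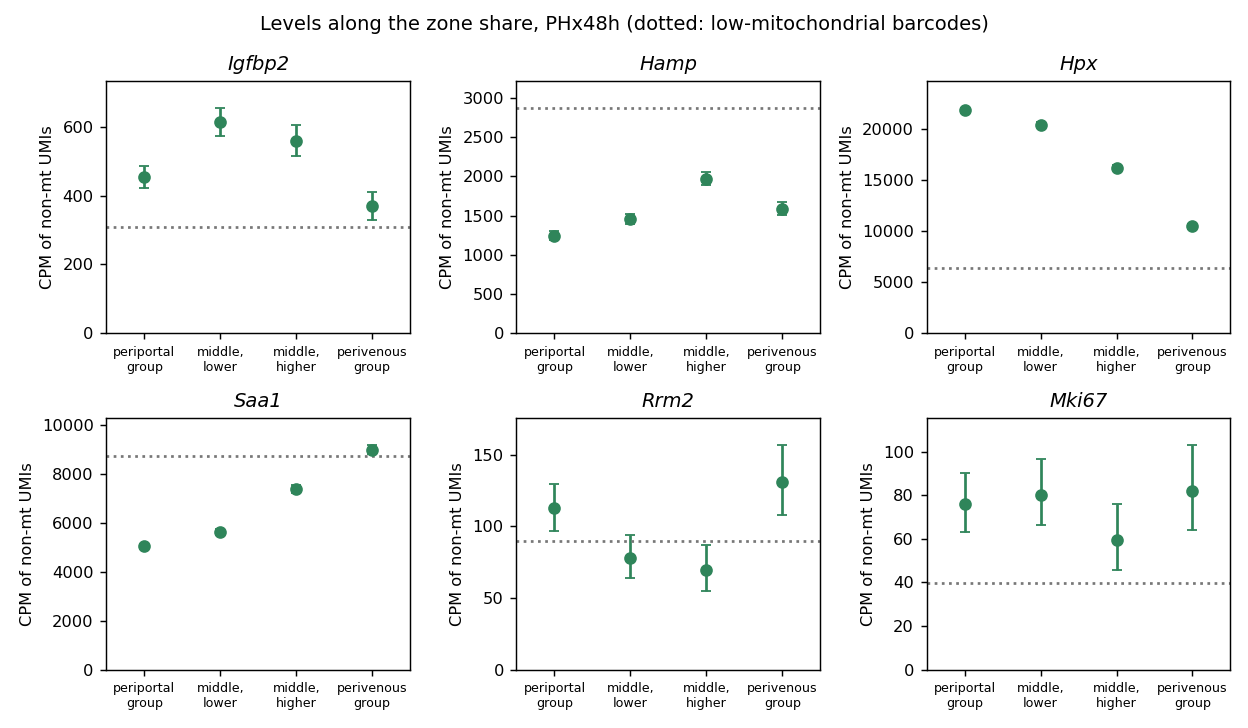
CPM of non-mt UMIs (y axis, from 0) of 6 genes in the periportal group, the lower-share and higher-share barcodes of the middle group and the perivenous group (x axis); bars are exact 95% Poisson intervals and the dotted line is the level in the low-mt barcodes. Igfbp2 peaks in the middle, Hamp in the higher-share barcodes at 1966 CPM, Hpx is lower and Saa1 higher at each step towards the perivenous side, Rrm2 is lowest in the middle, and the Mki67 intervals overlap.

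Cycling genes were compared by 2 lists of 36 G1/S genes and 40 G2/M genes. The G1/S list summed to 970 CPM in the middle group [932 to 1010], 1030 CPM in the periportal group and 1148 CPM in the perivenous group. The G2/M list summed to 1159 CPM [1117 to 1202], 1316 CPM and 1473 CPM. For both lists together the log2 ratio was -0.30 over the perivenous group [-0.37 to -0.23] and -0.14 over the periportal group [-0.20 to -0.08]. The second depended on the settings. It was 0.38 when the mt threshold was 50%, 0.06 when Cyp2e1 and Cyp2f2 were left out of the zone share, 0.06 among barcodes of 2000 to 10000 non-mt UMIs and 0.01 as a mean over single barcodes. Against the perivenous group the ratio stayed negative under these 4 settings, at -0.15, -0.20, -0.10 and -0.18.

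Of the 3 G1/S genes that reached 50 CPM, Rrm2 and Mcm6 were lower than in both outer groups and Ccnd1 was graded. Ccnd1, the cyclin D1 that carries hepatocytes past the G1 restriction point, had 129 CPM in the periportal group, 217 CPM in the middle group [199 to 236] and 260 CPM in the perivenous group. It also differed inside the middle group, with 189 CPM in the lower-share and 254 CPM in the higher-share barcodes. All 8 G2/M features had their lowest level in the middle group, where 21.4% of all features did. They were counted in the same barcodes and are not separate observations. None was past the fold limit below the periportal group (3.66% of all features), with a median log2 ratio of -0.09, and so none against both. Below the perivenous group 4 were past it (18.8% of all features), with a median of -0.32. Cks2, a subunit of cyclin-dependent kinases, had 89.4, 80.4 and 110 CPM from the periportal to the perivenous group, and Cdca3, which triggers mitotic entry, had 84.1, 82.4 and 111 CPM. Mki67, the proliferation marker Ki-67, had 71.2 CPM [61.1 to 82.5], against 75.8 and 81.9, and Top2a, a topoisomerase of dividing cells, had 45.6 CPM [37.6 to 54.8], against 53.3 and 72.8. Pcna, the sliding clamp of replication, stood below the feature minimum at 38.8 CPM in the middle group, against 41.5 in the periportal and 40.9 in the perivenous group. No difference from the periportal group in Mki67, Top2a or Pcna was detectable at this depth. Btg2, an inhibitor of proliferation, had 69.3, 88.4 and 75.05 CPM from the periportal to the perivenous group.

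Per barcode, the middle group held 0 to 13 cycling UMIs in 1000, with a median of 2. At least 5 were found in 36 of 371 barcodes, or 9.70% [6.89 to 13.2], against 12.3% [7.96 to 17.9] in the periportal group and 14.5% [9.79 to 20.4] in the perivenous group. The low-mt barcodes reached 17.2% [14.1 to 20.8], and the intervals of the 3 groups overlapped, so the shares were not read as a difference between them. The distribution had no gap at the threshold, since 32 barcodes held 4 UMIs and 15 held 5. Without thinning, 76.01% of the middle group had at least 5. The per-barcode CPM of the 2 lists ranged from 0 to 8017 in the middle group with a median of 1621, against medians of 1290 in the periportal and 1853 in the perivenous group. By this median the middle group stood above the periportal group, opposite to the pooled level.

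**Figure D4:**
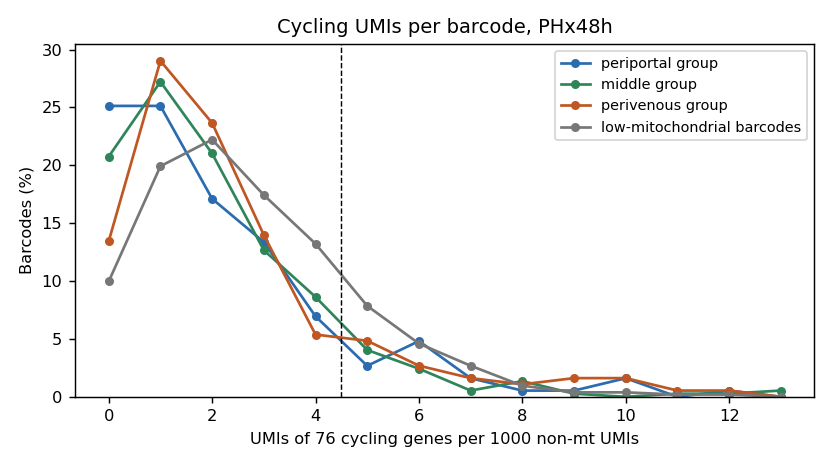
Percentage of barcodes (y axis) by the number of UMIs of 76 cycling genes among 1000 non-mt UMIs (x axis) in the middle group, both outer groups and the low-mt barcodes; counts run to 13 and the dashed line marks the threshold of 5. The curves of the 3 groups overlap, and the low-mt barcodes are the most frequent at counts of 3, 4 and 5.

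The 36 high-cycling barcodes were spread over the middle group, with 18 among its higher-share barcodes. Their median mt share was 61.0%, against 56.4% in the other 335, and their median depth was 4348 against 4785 non-mt UMIs. Hamp had 1045 CPM in them [921 to 1180] and 1743 CPM in the others [1689 to 1799], whereas Igfbp2 had 765 CPM [660 to 883] and 572 CPM [541 to 604]. The threshold was set on a count, so these barcodes are a range and not a cell type.

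Acute phase genes, which encode plasma proteins that the liver secretes after injury, summed to 97162 CPM in the middle group. This was between the 102668 CPM of the periportal group and the 80326 CPM of the perivenous group, with log2 ratios of 0.27 over the latter [0.26 to 0.29] and -0.08 over the former [-0.09 to -0.07]. Single barcodes of the middle group ranged from 49348 to 168325 CPM, and the ranges of the 3 groups overlapped. Of 28 features of this list, 19 were between the outer groups, 6 above both and 3 below both. Over all features these shares were 60.7%, 17.9% and 21.4%, so the counts between and above both were near the general ones. In the middle group, 12 were past the fold limit above and 3 below the perivenous group, against 11.6% and 18.8% of all features. Against the periportal group 5 were above and 3 below by that limit, where 7.86% and 3.66% of all features were. The list held genes with opposite gradients.

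Of the middle and outer groups, the perivenous group had the highest levels of Saa1 and Saa2. Saa1 had 5054 CPM in the periportal group, 6388 CPM in the middle group [6290 to 6488] and 9005 CPM in the perivenous group, and Saa2 had 3417, 4338 and 6273 CPM. Inside the middle group Saa1 went from 5629 CPM in the lower-share to 7389 CPM in the higher-share barcodes. Orm2, an orosomucoid, had 370, 507 and 1068 CPM in the same order as Saa1. Saa and Orm genes are near-identical copies whose reads could be split, and the low-mt barcodes carried 8740 CPM of Saa1, more than the middle group. After thinning, at least 5 Saa2 UMIs were found in 87.7% of the low-mt barcodes, 74.2% of the perivenous and 48.2% of the middle group. The part of RNA shared between droplets in these gradients was not tested.

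Other acute phase genes were periportal. Hpx, the haem scavenger hemopexin, had 21875 CPM in the periportal group, 18635 CPM in the middle group and 10478 CPM in the perivenous group. Fgb, the fibrinogen beta chain, had 5170, 4595 and 3271 CPM, and Apoa4, an apolipoprotein, had 3468, 2458 and 801 CPM. Hpx stood at 6416 CPM in the low-mt barcodes, well under every group.

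C3 and Mt2 were highest in the middle. C3, the central complement component, had 9437 CPM in the middle group [9317 to 9558], 8541 CPM in the periportal group [8402 to 8681] and 7455 CPM in the perivenous group [7275 to 7637]. Lcn2, which binds bacterial iron carriers, was lower in the middle group, at 588 CPM [558 to 619], than in the periportal group, at 747 CPM [706 to 789], and did not differ beyond counting error from the perivenous group, at 613 CPM [562 to 667]. The low-mt barcodes had 1002 CPM of Lcn2.

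Genes that act around Hamp did not share 1 profile. Tfr2 and Tmprss6, a sensor of transferrin iron and a protease that restrains hepcidin, had 321 and 368 CPM in the middle group, and their log2 ratios over the outer groups were between 0.10 and 0.39. Trf, transferrin itself, was periportal with 15875, 14606 and 9590 CPM, and Ftl1, the ferritin light chain, was perivenous with 5717, 6238 and 8263 CPM. Fth1, the ferritin heavy chain, had 2873, 3220 and 3982 CPM. Of 10 features of the iron and BMP list, 6 were between the outer groups and 4 above both, where 60.7% and 17.9% of all features were. Around Igfbp2, Igfals, the acid-labile subunit that holds insulin-like growth factor 1 in the blood, had a similar shape, with 161 CPM in the middle group [145 to 177], against 129 in the periportal and 106 in the perivenous group. Igfbp1 was graded instead, with 33.8, 50.4 and 88.7 CPM. Igf1 itself had 743, 716 and 738 CPM, with overlapping intervals. Of 7 features of the insulin-like growth factor list, 2 were above both outer groups, 2 below both and 3 between. The shares of all features were 17.9%, 21.4% and 60.7%. Of genes tied to Stat3 signalling, Lifr, a receptor subunit of the interleukin 6 family, had 142, 157 and 197 CPM, and Cebpb, a transcription factor of the acute phase, had 78.8, 122 and 146 CPM.

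Markers of other liver cells were sparse but not absent. Endothelial markers summed to 115 CPM in the middle group [102 to 129], 27.2 CPM in the periportal group and 126 CPM in the perivenous group, with all 11 markers detected and up to 44 UMIs in 1 barcode. Macrophage markers held 50 UMIs in the middle group, with Adgre1 at 0 and at most 6 UMIs in a barcode, and had 14.2 CPM in the periportal and 79.6 CPM in the perivenous group. Stromal markers had 13.0, 35.6 and 87.6 CPM from the periportal to the perivenous group, with Acta2, Col14a1 and Col3a1 at 0 in the middle group. Macrophage and stromal markers were thus highest in the perivenous group, where 1 barcode held 45 of the 70 macrophage UMIs. Endothelial markers did not differ beyond counting error between the middle and perivenous groups, with a log2 ratio of -0.13 [-0.45 to 0.20]. The part of these markers in the comparisons with the perivenous group was not tested. The 6 T and NK cell, 4 B cell and 5 neutrophil markers in the files were all at 0 UMIs in the middle group, which allows up to 1.48 CPM for each list by the exact interval. At least 5 UMIs of 1 such list were found in 11 barcodes of the middle group. Without the barcodes of this kind, no value of Hamp, Igfbp2 or the cycling genes moved beyond its interval. Scrublet called 6 of the 371 barcodes doublets.

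To set the middle group beside undamaged liver, the same rule was applied to the 0 h library with its own percentiles. There 998 of 2053 barcodes with a zone share formed the middle group, between shares of 27.3% and 84.6%, with a median of 1814.5 non-mt UMIs. The middle groups of the 2 libraries thus differed in their limits and depth, and time, mouse and library cannot be told apart. Of 2191 features with a mean of at least 50 CPM over both, 29.9% were at least 2-fold higher and 9.49% at least 2-fold lower at 48 h, and the median log2 ratio was 0.39.

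Cycling genes were higher at 48 h. The G2/M list summed to 77.1 CPM in the middle group at 0 h and 1159 CPM at 48 h, and the G1/S list to 180 CPM and 970 CPM. The low-mt barcodes of the 2 libraries held 85.3 and 1832 CPM of the G2/M list, so these RNAs also differed outside the high-mt barcodes. Ccnd1 stood at 6.70 CPM at 0 h [3.66 to 11.2] and 217 CPM at 48 h, a log2 ratio of 5.02. Krt8 and Krt18, the keratins of hepatocytes, had log2 ratios of 2.52 each, from 186 to 1066 CPM and from 202 to 1159 CPM.

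The acute phase list summed to 96961 CPM at 0 h and 97162 CPM at 48 h, which differed by less than counting error, but its genes differed in both directions. Of 29 features, 11 were at least 2-fold higher and 5 at least 2-fold lower, where 29.9% and 9.49% of all features were, so the share of higher ones was near that of all features. Saa2 had 91.0 and 4338 CPM, Lcn2 4.79 and 588 CPM, Mt2 2.39 and 158 CPM, and Hpx 6807 and 18635 CPM. Among the lower ones, Serpina3k, a protease inhibitor, had 30452 CPM at 0 h and 9497 CPM at 48 h, Fga 3049 and 1360 CPM, and Crp 814 and 264 CPM.

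The 4 midlobular markers that reached the minimum differed in direction, with 3 lower by 2-fold or more, where 9.49% of all features were. Hamp had 866 CPM at 0 h [826 to 907] and 1674 CPM at 48 h, with 502 and 2872 CPM in the low-mt barcodes. Igfbp2 had 1298 CPM at 0 h [1249 to 1348] and 591 CPM at 48 h, a log2 ratio of -1.14, and the low-mt barcodes had 1316 and 308 CPM. Cyp8b1 had 472 and 58.0 CPM, and Mup3 had 28501 and 7050 CPM.

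**Figure D5:**
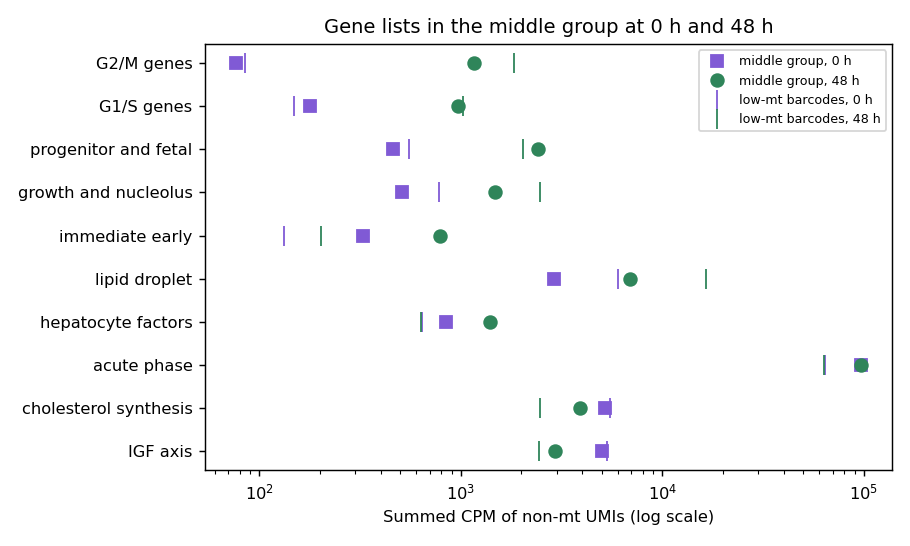
Summed CPM of non-mt UMIs on a log axis for 10 gene lists in the middle group at 0 h (squares) and 48 h (circles), with the low-mt barcodes of each library as vertical marks; no error is drawn because each point is 1 library. The G2/M list stands at 77.1 and 1159 CPM and the acute phase list at 96961 and 97162 CPM.

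The counts of other lists are read against the 29.9% of all features that were at least 2-fold higher and the 9.49% that were at least 2-fold lower. All 4 growth and nucleolar features were at least 2-fold higher at 48 h, including Ncl, which encodes nucleolin, with 45.0 and 170 CPM, and Rps6, a ribosomal protein, with 156 and 712 CPM. Of 8 hepatocyte transcription factors, 4 were at least 2-fold higher and none was 2-fold lower. Hnf4a, a regulator of hepatocyte identity, had 84.7 CPM at 0 h and 251 CPM at 48 h, and Rxra, a partner of nuclear receptors, had 96.7 and 222 CPM. Of 18 cholesterol synthesis features, 7 were at least 2-fold lower and 3 higher, with Msmo1, a sterol demethylation enzyme, at 726 and 155 CPM.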

How the data were processed

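Droplet single-cell RNA-Seq (10X Genomics, version 2 chemistry) of isolated mouse hepatocytes was analysed in 2 libraries, 1 per group. The authors deposited UMI counts per gene and barcode as whole numbers without normalization, made with Cell Ranger (its version is not given in the sources used here). The labels name mm10. By the study's methods the authors excluded cells of high mt content and possible doublets before their own analysis. Their thresholds are not given in the sources used here, so the barcodes described, all above 30% mt, may be among those excluded. Both files held 27998 genes. Totals per barcode ran from 4578 to 110169 UMIs at 48 h and from 1183 to 24594 at 0 h.

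Members and gene lists were chosen with earlier results of these data known. UMIs were summed per group and divided by summed non-mt UMIs. Features needed 50 CPM, and a log2 ratio of 0.32 (a 2-fold ratio between time points) was the limit. The genes to be named were the 10 with the highest smaller of the 2 ratios, the 10 with the lowest larger one, the midlobular markers, the most abundant of each list, and Mki67, Top2a, Pcna, Ccnd1, Saa1, Saa2 and Lcn2. Cyp2a5, Cyp7a1, Cdh1, Gls2, Aldh1b1, Cps1, Hpd, Orm2, Fgb, Apoa4, Tfr2, Tmprss6, Igfals, Igfbp1, Fga, Crp, Msmo1, Spp1, Fabp5 and the list genes given as 0 fell outside this rule and were chosen after their values were seen. Intervals were exact Poisson, exact binomial and exact conditional binomial. The procedure was tested on simulated pooled counts without spread between barcodes, so that test does not bear on such spread. Barcode strings were shared between libraries in 148 cases, 37 of them members. Python 3.11.15, scipy 1.17.1, Scanpy 1.11.5 (Scrublet) and edgeR 4.0.16 (TMM factors only) were used. Coordinates are from GENCODE M21 (GRCm38), found for 41 of 41 genes, and promoter sequences from RefSeq (GRCm38.p6). Apoc2 had 2 rows, of which the first was used. Of 425 list symbols, 420 were in the files. Alternatives changed the mt threshold, the zone UMI minimum, the percentiles, the zonal genes, the scaling, the thinning and the removal of doublets or depth extremes. 1 gene that the naming rule covers is not reported here.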

Additional observations from a re-analysis of the deposited data

How the results depend on the processing

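Of 127 recomputed values, 76 stayed within the limit set for them, 47 moved further and 4 changed from a ratio beyond counting error to the other sign. The limit was the counting interval of the main value for levels and shares. For depth it was the interval of the median over barcodes, and for feature counts a set fold. No paired analysis was possible because each group had 1 library and no replicate numbers. The 4 changes of sign concerned the cycling genes against the periportal group. The log2 ratios were 0.38 (mt threshold 50%), 0.0629 (without Cyp2e1 and Cyp2f2), 0.0128 (mean of single-barcode CPM) and 0.0608 (2000 to 10000 non-mt UMIs). The interval of the last included 0 [-0.0369 to 0.159], and the mean of single-barcode CPM had no interval. The cause was not tested. The following log2 ratios moved. With a zone UMI minimum of 20 they were 0.30 for acute phase over the perivenous group, 0.615 for Hamp over the periportal group and 0.56 for depth over the perivenous group. With an mt threshold of 20%, cycling over periportal was -0.21, acute phase over periportal -0.094, and Hamp 0.31 over perivenous and 0.54 over periportal. With 50%, cycling over perivenous was -0.15, acute phase over perivenous 0.35 and depth over periportal -0.19. With the 33rd to 67th percentiles, acute phase was 0.25 over perivenous and -0.0636 over periportal, and Hamp -0.0873 and 0.28, so that Hamp, whose ratio of 0.08 had not exceeded counting error, was below the perivenous group. Without Cyp2e1 and Cyp2f2, cycling over perivenous was -0.20, Hamp 0.22 and 0.60, and depth over periportal -0.20. With CPM on all UMIs, cycling was -0.21 and -0.23, acute phase 0.36 and -0.17, and Hamp over periportal 0.34. Without the 20 most abundant genes, cycling over perivenous was -0.23 and acute phase 0.33 and -0.14. With TMM factors, cycling over perivenous was -0.19, acute phase 0.38 and -0.0943, and Hamp over perivenous 0.19. As means of single barcodes, cycling over perivenous was -0.18 and Igfbp2 over periportal 0.59. Without barcodes of other cell types, acute phase was 0.26 and -0.0685. For 2000 to 10000 non-mt UMIs, cycling over perivenous was -0.10, acute phase 0.30, Hamp 0.21 and Igfbp2 over periportal 0.62. The share of high-cycling barcodes was 34.4% thinned to 2000 UMIs, 76.01% without thinning and 52.0% at 2 or more UMIs. Features past the fold limit above and below both outer groups numbered 91 and 132 at 20 CPM, 5 and 1 at 100 CPM, and 750 and 818 with no minimum. Igfbp2 stayed above both outer groups in every setting, at 0.65 to 0.80 over perivenous and 0.29 to 0.62 over periportal.

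Depth limits these results: the zone share rests on a median of 34 UMIs per barcode, and in the middle group Pcna rests on 97 UMIs and Ccnd1 on 542. Doublet removal by Scrublet, with 9 calls of 765, may be incomplete.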

Other observations

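Immediate early genes, which respond within minutes to stress or growth signals, summed to 791 CPM in the middle group [756 to 826], 638 CPM in the periportal group and 787 CPM in the perivenous group, with 202 CPM in the low-mt barcodes. Jun had 120 CPM in the middle group [107 to 134], 84.7 CPM in the periportal group and 130 CPM in the perivenous group. Jund, a partner of Jun in the AP-1 complex, had 126, 149 and 158 CPM from periportal to perivenous. Of 5 features, 3 were between the outer groups and 2 above both, where 60.7% and 17.9% of all features were. Of 16 features of cholesterol synthesis, 8 were past the fold limit below the perivenous group, where 18.8% of all features were, and 1 was above it by that limit. In 4 of the 16 the level was above both outer groups, where 17.9% of all features were. Hmgcs1, an early enzyme of the pathway, had 232 CPM in the periportal group, 241 CPM in the middle group and 446 CPM in the perivenous group. Spp1, which encodes osteopontin, had 78.2, 31.2 and 6.82 CPM in the same order. Ebp, a sterol isomerase, had 355, 360 and 374 CPM from periportal to perivenous. Krt19, Cd24a, Dlk1, Gpc3 and H19 of the progenitor list were at 0 UMIs in the middle group. Of the lipid droplet list, Fabp1, the liver fatty acid binding protein, had 5093, 5754 and 7177 CPM, and Plin2, a droplet coat protein, 375, 346 and 390 CPM. Of nuclear RNAs, Malat1 had 3232, 2812 and 2090 CPM and Neat1 589, 609 and 636 CPM. Fabp5, a fatty acid binding protein, had 40.3, 78.4 and 86.4 CPM from periportal to perivenous.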
